A study of Rattus norvegicus with 91 samples.

Results

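The opioid peptides and receptors comprise 4 precursor genes, Penk, Pdyn, Pomc and Pnoc, and 4 receptor genes, Oprm1, Oprd1, Oprk1 and Oprl1. They were taken as all probe sets whose platform annotation gives exactly 1 gene symbol equal to one of these names, which found 14 of 31042 probe sets that are not controls, 5 of precursors and 9 of receptors. RNA came from the ventral tegmental area, where the mesolimbic dopamine neurons lie, of rats of 10 lines that form 5 pairs selectively bred in opposite directions for alcohol consumption. The high-consumption lines were HAD1 (8 arrays), HAD2 (8), P (9), AA (10) and sP (8), and their low-consumption partners LAD1 (10), LAD2 (9), NP (10), ANA (10) and sNP (9), with 1 array per animal. The labels give no treatment, age or sex. Within 1 pair, selection and chance fixation in a closed line cannot be told apart.

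Opioid peptides are cut from larger precursor proteins and act on inhibitory G protein-coupled receptors. Penk gives the enkephalins, ligands of the delta and mu receptors (Oprd1, Oprm1). Pdyn gives the dynorphins, ligands of the kappa receptor (Oprk1), Pomc gives beta-endorphin, and Pnoc gives nociceptin, the ligand of Oprl1. In the ventral tegmental area, mu receptors on GABA neurons are known for disinhibiting dopamine neurons, and kappa receptors on dopamine neurons for inhibiting them.

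Values are log2 signals, on which a difference of 1 is a doubling, and the number of arrays limits their precision. Clustering of the value distributions into 5 sets, a number chosen and not estimated, put all HAD and LAD arrays with their own pair. It put the array labelled AA 1 with the arrays labelled P and NP, and the arrays labelled AA 19 and ANA 20 with those labelled sP and sNP. Whether the labels of the 56 arrays outside the HAD and LAD lines match their values was not tested, so those groups are given as labelled. Line means of the 3'-minus-5' Gapdh control ran from 0.136 to 3.58 between pairs, so no level is set against one of another pair. Th, tyrosine hydroxylase, the defining enzyme of dopamine neurons, was above the floor for testing (7.02, defined below) on all 91 arrays, from 8.23 to 15.3. The array labelled P 10 stood apart in the opioid genes, as described below. The P-minus-NP differences of Penk, Pdyn, Pnoc and Oprk1 are given with and without it. Other results of P and NP include it unless stated.

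Of the 14 probe sets, 5 were at or above that floor, the 40th percentile of all values, in the higher line of every pair. These were the brightest probe set of Penk (1367949_at), Pdyn (1383294_at), Pnoc (1368369_at), Oprk1 (1368197_at) and Oprl1 (1369646_at). A further 2 were above it in some pairs, and 7 were under it in all pairs. Each pair was fitted alone with limma, and p-values were adjusted by the Benjamini-Hochberg method over all probe sets tested in that pair. None of the 28 tests of opioid probe sets over the 5 pairs passed an adjusted p of 0.05, and at an unadjusted p under 0.05 there was 1, Oprl1 in the arrays labelled AA and ANA. The share of all probe sets called was 4.62% for HAD1 against LAD1, 6.75% for HAD2 against LAD2, 0% for P against NP, 2.16% for AA against ANA and 0% for sP against sNP. In P against NP and sP against sNP, limma gave 232 and 672 probe sets at an unadjusted p under 0.05, beside 957 and 914 by chance, and the single fit of all 91 arrays also called 0. That fit called 1 opioid test, again Oprl1 in AA against ANA, where it called 836 of all 21204 probe sets it tested. The 2 lines of every pair overlapped in all 14 probe sets, part of which the plot of signals by line shows. The share of all probe sets that overlapped was not computed, so this says nothing particular to the opioid genes.

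**Figure D1:**
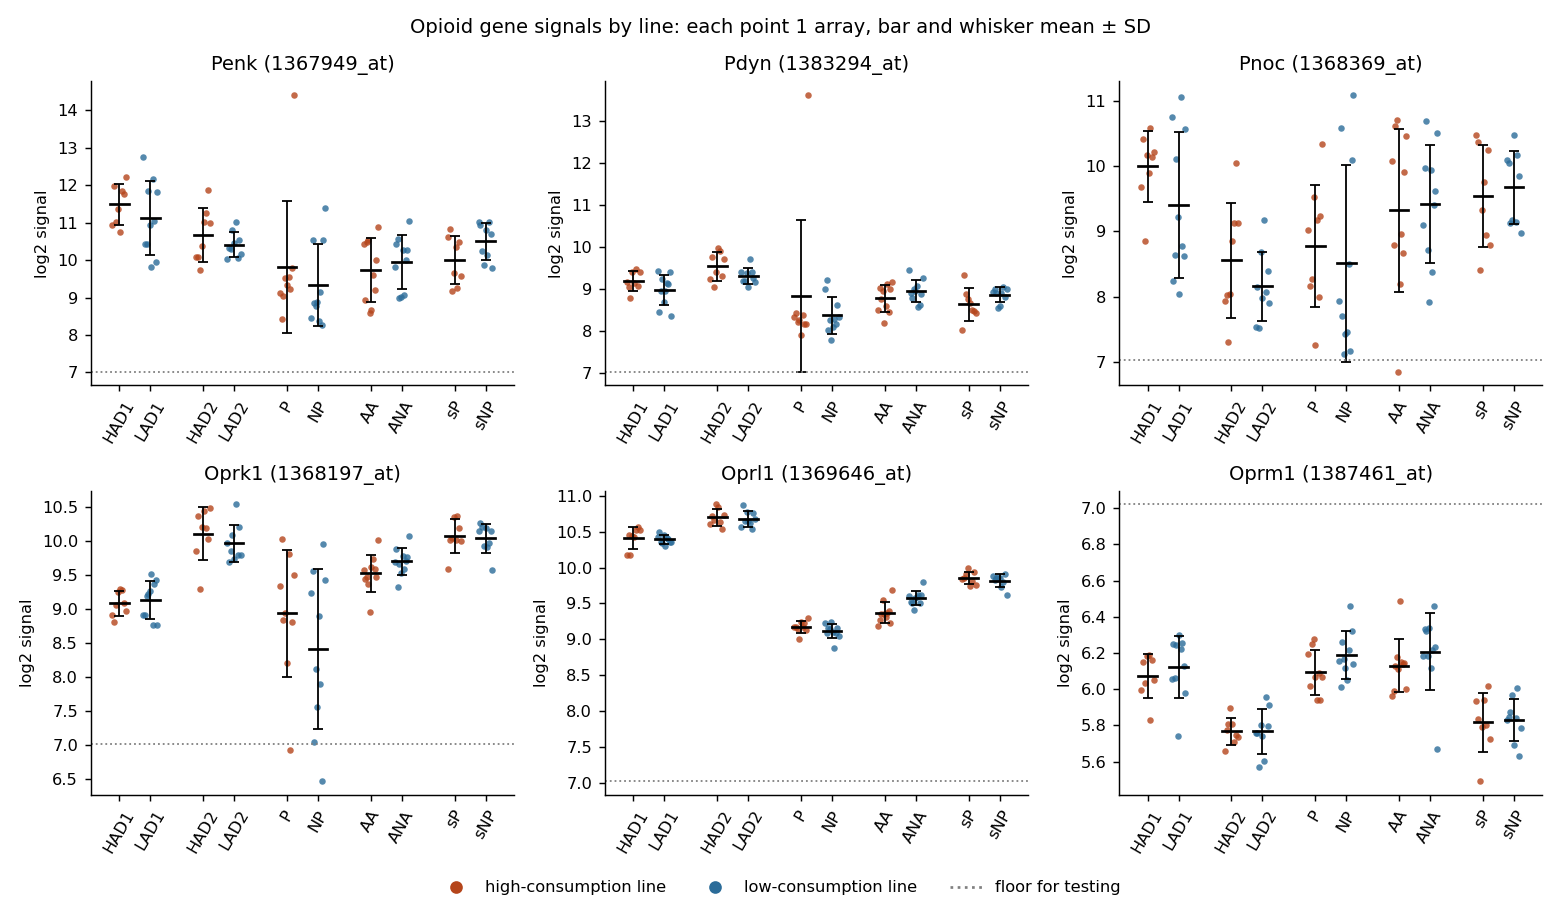
Log2 signal (y axis) of 6 opioid probe sets in each line (x axis), with the high-consumption line left of its partner; points are arrays, the bar and whiskers are the mean ± SD, and the dotted line is the floor for testing at 7.02. The lines of each pair overlap in every panel, the array P 10 is far above the other P arrays in Penk (14.4) and Pdyn (13.6), and Oprm1 lies under the floor on all arrays; heights are not comparable between pairs.

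Penk, the enkephalin precursor, had a higher mean in HAD1 than in LAD1 and in HAD2 than in LAD2, and a lower one in AA than in ANA and in sP than in sNP, none past the test. In HAD1 its signal ran from 10.7 to 12.2 with a median of 11.6, against 9.82 to 12.8 with a median of 10.99 in LAD1. The difference was 0.37 (95% interval -0.37 to 1.10, adjusted p = 0.696). The lowest arrays were LAD1, but so was the highest. In HAD2 Penk ran from 9.74 to 11.9 (median 10.7), against 10.03 to 11.02 (median 10.3) in LAD2, a difference of 0.27 (-0.24 to 0.77, adjusted p = 0.668). The HAD2 arrays spread to both sides of the LAD2 range. In arrays labelled sP it ran from 9.18 to 10.8 (median 10.01), against 9.79 to 11.02 (median 10.7) in those labelled sNP, and 1 of the 8 sP arrays exceeded the sNP median. This was the largest negative difference of any opioid probe set, -0.50 (-1.03 to 0.03, p = 0.0646, adjusted p = 0.991 by limma). In arrays labelled AA it ran from 8.58 to 10.9 (median 9.80), against 8.995 to 11.05 (median 10.1) in ANA, a difference of -0.21 (-0.88 to 0.46, adjusted p = 0.847).

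Pnoc, the nociceptin precursor, had means with the same signs as Penk in every pair with all arrays in, and also passed in none. In HAD1 it ran from 8.85 to 10.6 (median 10.1), against 8.03 to 11.05 (median 8.996) in LAD1. The difference of 0.60 was the largest positive one of any opioid probe set (-0.22 to 1.41, adjusted p = 0.513), and 7 of 8 HAD1 arrays lay above the LAD1 median. The top values, however, were again LAD1 arrays. In HAD2 it ran from 7.31 to 10.05 (median 8.44), against 7.52 to 9.17 (median 8.06) in LAD2, a difference of 0.40 (-0.25 to 1.05, adjusted p = 0.603). In arrays labelled AA it ran from 6.85 to 10.7 (median 9.44), against 7.91 to 10.7 (median 9.51) in ANA, and in sP from 8.41 to 10.5 (median 9.54), against 8.98 to 10.5 (median 9.85) in sNP. These differences were -0.10 and -0.13, and both intervals reached beyond 0.49 on either side. Their signs rested on single arrays: without AA 9 the first was 0.17 (it was above 0 without any of 4 arrays), and without sP 4 the second was 0.029.

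Pdyn, the dynorphin precursor, had the same signs with smaller differences in the HAD and LAD pairs. In HAD1 its brighter probe set ran from 8.79 to 9.48 (median 9.16), against 8.37 to 9.42 (median 9.04) in LAD1, a difference of 0.22 (-0.07 to 0.50). In HAD2 it ran from 9.04 to 9.98 (median 9.56), against 9.06 to 9.72 (median 9.27) in LAD2, a difference of 0.23 (-0.02 to 0.49). These had the lowest adjusted p of any opioid probe set in the HAD and LAD pairs, 0.494 and 0.356, and 7 of 8 HAD1 and 6 of 8 HAD2 arrays exceeded the median of the partner line. Without HAD2 5, the lowest HAD2 array, the HAD2 difference was 0.31 and its adjusted p 0.12. In arrays labelled AA it ran from 8.19 to 9.17 (median 8.85), against 8.58 to 9.46 (median 8.93) in ANA, and in sP from 8.03 to 9.34 (median 8.58), against 8.55 to 9.05 (median 8.91) in sNP. The differences there were -0.18 and -0.23, with adjusted p of 0.598 and 0.991. The second Pdyn probe set (1369882_at) was under the floor in every pair, with line means of 5.202 to 5.85.

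Pomc, the beta-endorphin precursor, whose neurons lie in the hypothalamus, was under the floor in every pair. Its line means ran from 5.74 to 6.78, and its differences from -0.07 to 0.08. A signal at this level says only that Pomc was not separable from dim probe sets, and in tissue made of many cell types fewer cells of a type and less RNA per cell cannot be told apart for any of these genes.

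Oprk1, the kappa receptor, did not pass in any pair. Its brightest probe set ran from 8.81 to 9.30 in HAD1 (median 9.08), against 8.76 to 9.52 in LAD1 (median 9.21), a difference of -0.05 (-0.27 to 0.17). In HAD2 it ran from 9.30 to 10.5 (median 10.2), against 9.69 to 10.5 in LAD2 (median 9.86), a difference of 0.14 (-0.16 to 0.45). A second probe set (1387102_at), tested in these pairs alone, gave -0.01 and 0.15. Both thus gave a near-zero value in HAD1 against LAD1 and a small positive one in HAD2 against LAD2. In arrays labelled AA it ran from 8.96 to 10.02 (median 9.53), against 9.33 to 10.1 (median 9.71) in ANA, a difference of -0.18 (-0.39 to 0.03, adjusted p = 0.475). In sP it ran from 9.60 to 10.4 (median 10.04), against 9.59 to 10.3 (median 10.1) in sNP, a difference of 0.03 (-0.18 to 0.25). The third Oprk1 probe set (1368198_at) was under the floor in every pair, with line means of 5.95 to 6.41. Its untested differences ran from -0.18 in AA against ANA, where 1 of 10 AA arrays exceeded the ANA median, to 0.13 in sP against sNP.

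Oprl1, the nociceptin receptor, was the one member with a result near the threshold. In arrays labelled AA its signal ran from 9.19 to 9.68 with a median of 9.35, against 9.41 to 9.79 with a median of 9.59 in those labelled ANA. The AA arrays lay lower as a group, with 1 of 10 above the ANA median, and the ranges overlapped. The difference was -0.20 (-0.32 to -0.09), a ratio between 0.80 and 0.94, with an unadjusted p of 0.00186 and an adjusted p of 0.0678 by limma. It passed with the 17 AA and ANA arrays of 1 set alone (-0.20, adjusted p = 0.011), in the single fit of all arrays (adjusted p = 0.00444), with array weights (0.00719) and without AA 19 (-0.24, 0.00945), the highest AA array. The other alternatives of processing left it between 0.0576 and 0.127. The 2 further Oprl1 probe sets were under the floor in AA and ANA, with differences of -0.07 and -0.02.

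In the other pairs the means of Oprl1 lay within 0.06 of each other. It ran from 10.2 to 10.6 in HAD1 (median 10.4), against 10.3 to 10.5 in LAD1 (median 10.4), and from 10.5 to 10.9 in HAD2 (median 10.7), against 10.5 to 10.9 in LAD2 (median 10.6). The arrays labelled P gave 8.999 to 9.29, against 8.88 to 9.23 for NP, and those labelled sP 9.74 to 9.99, against 9.62 to 9.92 for sNP. The differences of 0.02, 0.03, 0.06 and 0.04 had intervals inside -0.10 to 0.16, so a change of the size seen in AA and ANA lay outside each of them. In a fit of all 91 arrays, the F test of whether the difference depends on the pair gave Oprl1 an adjusted p of 0.0258, with 8.25% of all probe sets called by that test. It was 0.0345 without P 10 and NP 8, and 0.0656 with each array centred on its median. The F test called none of the other 6 tested opioid probe sets, whose adjusted p ran from 0.71 to 0.933.

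Oprm1 and Oprd1, the mu and delta receptors, were under the floor in every pair. The 2 Oprm1 probe sets had line means of 5.77 to 6.21 and 4.18 to 5.12, and Oprd1 5.14 to 5.88. Differences of these 3 probe sets ran from -0.11 to 0.01. The dimmer Oprm1 probe set (1369109_at) was lower in the high-consumption line in every pair but sP against sNP (0.01). In the fit of all arrays without a floor, its mean difference over the 5 pairs was -0.08 (p = 0.0084, adjusted p = 0.231 by limma). Neither the enkephalin and endorphin receptors nor a line difference in them could be resolved on these arrays.

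**Figure D2:**
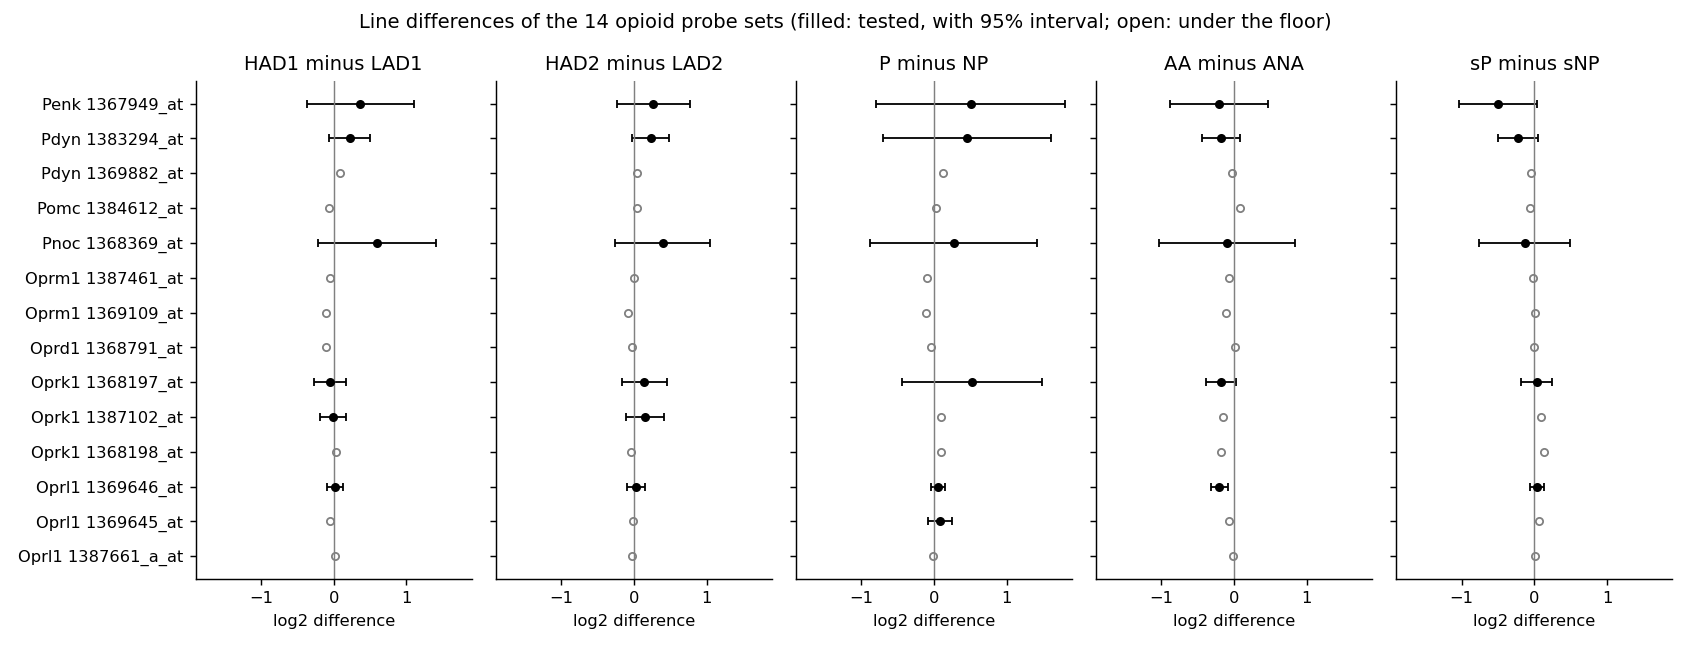
Difference between the high- and the low-consumption line (x axis, log2) for the 14 opioid probe sets (rows) in each pair (panels); filled points with bars are tested differences and 95% intervals, and open points are under the floor and untested. In HAD1 minus LAD1 and HAD2 minus LAD2 the precursors Penk, Pdyn and Pnoc lie right of 0 and in AA minus ANA and sP minus sNP left of it, every interval of theirs crosses 0, and Oprl1 in AA minus ANA has the one interval that does not.

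Over the tested opioid probe sets, the median difference was 0.12 in HAD1 against LAD1, 0.19 in HAD2 against LAD2, -0.18 in AA against ANA and -0.13 in sP against sNP. In P against NP it was 0.36, 0.053 without P 10 and -0.0175 without both P 10 and NP 8. Over all probe sets tested the median lay between -0.0012 and 0.011. The opioid medians rest on 5 or 6 probe sets each, most of them with a wide spread between arrays, and were not tested against those. Pairs share no animals, but the signs within a pair are not independent, because Penk and Pnoc varied together across animals, as their correlations show. The mean of the HAD1/LAD1 and HAD2/LAD2 differences was 0.50 for Pnoc (-0.15 to 1.14, adjusted p = 0.521), 0.32 for Penk and 0.23 for Pdyn, and none passed in a test that called 6.24% of all probe sets. In a fit of the HAD and LAD arrays alone, which leaves out the wide spread of P and NP, Pdyn had the lowest p of these (0.0242 unadjusted, adjusted p = 0.184 by limma). Between these pairs the differences of the same probe sets did not differ past the test, which called 4.91% of all probe sets and gave opioid ones adjusted p of 0.878 to 0.997. Over all 5 pairs the mean difference was 0.21 for Pnoc, 0.10 for Pdyn and 0.09 for Penk, and the adjusted p of the 7 tested opioid probe sets ran from 0.842 to 0.997. Without P 10 and NP 8 these means were 0.14, -0.02 and -0.05.

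The array labelled P 10 set the sign of the Penk and Pdyn differences between P and NP. It read 14.4 for Penk, against 8.44 to 9.79 on the other 8 P arrays and 8.27 to 11.4 on the 10 NP arrays. It read 13.6 for Pdyn, against 7.91 to 8.42 on the other P arrays and 7.78 to 9.21 on the NP arrays. The second Pdyn probe set read 8.17 there, against 5.28 to 5.52 on the other P arrays, and Pnoc 10.3, against 7.26 to 9.52. Of the 14 opioid probe sets, 6 were above the other P arrays and none below, and how many of all probe sets were so was not counted. Among the 6, the Oprl1 probe sets 1369646_at and 1369645_at were above by 0.049 and 0.045 alone. Oprk1, at 9.51, lay within the range of the other P arrays, 6.93 to 10.03. The same array was above the other P arrays in all 5 striatal markers measured, with Drd1, the D1 dopamine receptor, at 12.01 against 6.30 to 7.56 and Adora2a, an adenosine receptor, at 10.8 against 6.69 to 7.03. It was above them in all 3 GABA neuron markers and below them in 12 of 14 dopamine neuron markers, with Th at 9.12 against 11.4 to 14.95. How far this marker pattern accounts for the opioid values was not tested.

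With P 10, the P-minus-NP difference was 0.50 for Penk (-0.80 to 1.81), 0.46 for Pdyn (-0.70 to 1.61), 0.27 for Pnoc (-0.88 to 1.42) and 0.52 for Oprk1 (-0.45 to 1.49). Without it Penk was -0.07 (-0.88 to 0.74), Pdyn -0.14 (-0.47 to 0.19), Pnoc 0.07 (± 0.55 SE) and Oprk1 0.45 (-0.57 to 1.47). The sign of Penk and Pdyn thus rested on 1 array, and the intervals for Penk, Pnoc and Oprk1 stayed wide. A second array, NP 8, had the lowest Th, 8.23 against 11.6 to 14.9 on the other NP arrays. Of 14 dopamine neuron markers, 9 lay below the other NP arrays and 2, Foxa2 and Sncg, above them. Below them also lay 2 of 3 GABA neuron, all 6 oligodendrocyte, 5 of 6 microglia and 4 of 6 astrocyte markers. Above them lay 2 of 2 glutamate neuron, 4 of 6 pituitary and 3 of 5 cortex and hippocampus markers. No striatal or endothelial marker lay outside their range. NP 8 also had the lowest Penk of its line, 8.27 against 8.36 to 11.4, and the lowest Oprk1, 6.47 against 7.05 to 9.96. Without both P 10 and NP 8 the Oprk1 difference was 0.23 (-0.72 to 1.18). Oprk1 ran from 6.93 to 10.03 in P (median 8.95), against 6.47 to 9.96 in NP (median 8.51). A second Oprl1 probe set (1369645_at), above the floor in this pair alone, gave 0.08 (-0.09 to 0.25).

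**Figure D3:**
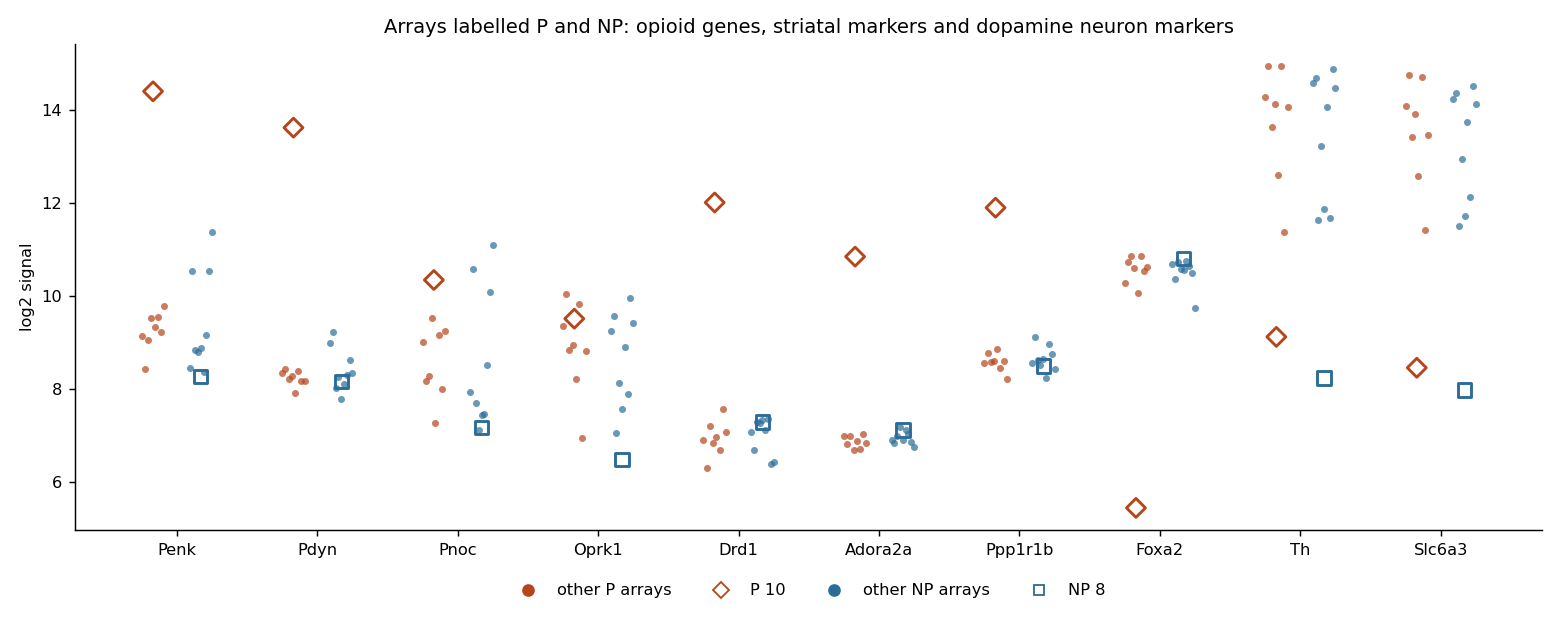
Log2 signal (y axis) of 4 opioid genes, 3 striatal markers (Drd1, Adora2a, Ppp1r1b) and 3 dopamine neuron markers (Foxa2, Th, Slc6a3) on each array labelled P (left of each gene) and NP (right), with P 10 as a diamond and NP 8 as a square. P 10 lies above all other arrays in Penk, Pdyn and the striatal markers and below the other P arrays in Foxa2, Th and Slc6a3, and NP 8 is the lowest NP array in Oprk1 and Th.

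The precursors of enkephalin and nociceptin varied more between animals of 1 line than nearly all other probe sets. Their within-line SD was 0.83 (Penk) and 0.91 (Pnoc) in HAD1 and LAD1, where the median over all tested probe sets was 0.14. In all 5 pairs both lay between the 99.2nd and the 99.8th percentile. Oprl1 lay between the 8.91st and the 35.1st, with an SD of 0.0887 to 0.128. The line differences of Penk and Pnoc were thus measured against a wide spread and those of Oprl1 against a narrow one.

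This spread was shared. Over the deviations of arrays from their line means, Penk and Pnoc correlated with r = 0.89 in HAD1/LAD1 (18 arrays), 0.95 in HAD2/LAD2 (17), 0.75 in P/NP (19), 0.94 in AA/ANA (20) and 0.94 in sP/sNP (17). Spearman's rho was 0.89, 0.91, 0.71, 0.95 and 0.91 in the same order. The permutation p-values, within lines with 100000 resamples, were at most 3e-05 for r and at most 0.00151 for rho. With adjustment over the 100 relations computed, the r values kept p of at most 0.00025. Without the 2 arrays farthest from the median r was 0.85 to 0.94, and without P 10 it was 0.90 in P/NP.

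Both precursors also followed Gad1, glutamate decarboxylase, the enzyme that makes GABA. For Penk r was 0.93, 0.84, 0.80, 0.95 and 0.94 over the 5 pairs in that order (rho 0.94, 0.85, 0.78, 0.95 and 0.93, adjusted permutation p for r at most 0.001), and 0.67 to 0.93 without the 2 farthest arrays. For Pnoc it was 0.95, 0.81, 0.68, 0.97 and 0.90 (rho 0.95, 0.82, 0.60, 0.96 and 0.84, adjusted p for r at most 0.0147, and for rho 0.0582 in P/NP), and 0.53 to 0.97 without the 2 farthest. In P/NP without P 10 the values were 0.76 for Penk and 0.63 for Pnoc. Neither precursor passed adjustment with Th in any pair. Gad1 itself differed by 0.34, 0.23, 0.27, -0.08 and -0.37 between the lines of the 5 pairs, with the same signs as Penk and Pnoc with all arrays in, and no call. Gad2, the other glutamate decarboxylase, differed by -0.06, -0.30, 0.38, 0.16 and 0.016, also with no call, and so had the opposite sign to Penk and Pnoc in every pair but P and NP.

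The relation of both precursors to Gad2 was tested after seeing the data. In P/NP r was 0.76 for Penk (rho 0.75) and 0.78 for Pnoc (rho 0.79), with an adjusted permutation p of 0.00055 over the 10 relations to Gad2, and 0.66 and 0.76 without P 10. In the other 4 pairs r ran from -0.12 to 0.41 for Penk and from -0.18 to 0.35 for Pnoc, and none passed by r or rho. Outside P/NP the relation of Penk and Pnoc to a GABA synthesis gene thus rested on Gad1 alone, and the difference between the relations to Gad1 and Gad2 was not tested.

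With each array's Gad1 signal as a covariate, chosen after seeing the data, the Penk difference was -0.16 (-0.47 to 0.14) in HAD1 against LAD1, -0.01 (-0.31 to 0.29) in HAD2 against LAD2, 0.12 (-0.70 to 0.94) in P against NP, -0.13 (-0.35 to 0.10) in AA against ANA and -0.12 (-0.33 to 0.09) in sP against sNP. For Pnoc it was -0.01, 0.05, -0.02, 0.02 and 0.30 in the same order. The intervals were narrower than without the covariate in every pair, and no test passed. Gad1 correlated with both genes on these same arrays, so narrower intervals follow from the choice of covariate. Its line means also differed with the same signs. The values are therefore differences at a given Gad1 signal and no closer bounds on the line differences themselves.

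Oprk1 followed Th instead. Over deviations from line means r was 0.91 in HAD1/LAD1 (rho 0.95, adjusted permutation p for r 0.000125), 0.77 in HAD2/LAD2 (rho 0.65, 0.00706), 0.72 in P/NP (rho 0.87, 0.00629), 0.42 in AA/ANA (rho 0.30, 0.198) and 0.61 in sP/sNP (rho 0.64, 0.0519, and 0.0388 for rho). Without the 2 farthest arrays these were 0.92, 0.45, 0.58, 0.26 and 0.53, so the value in HAD2/LAD2 rests largely on 2 arrays. Without P 10 the relation in P/NP was 0.94, and in the AA and ANA arrays of 1 set it was 0.81. With Gad1, Oprk1 passed adjustment in no pair. Th itself differed by -0.012, 0.080, 0.30, -0.14 and 0.068 between the lines of the 5 pairs and Slc6a3, the dopamine transporter, by -0.064, 0.077, 0.25, -0.062 and 0.069, with no call. The values of P against NP include P 10 and NP 8, which had the lowest Th and Slc6a3 of their lines.

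**Figure D4:**
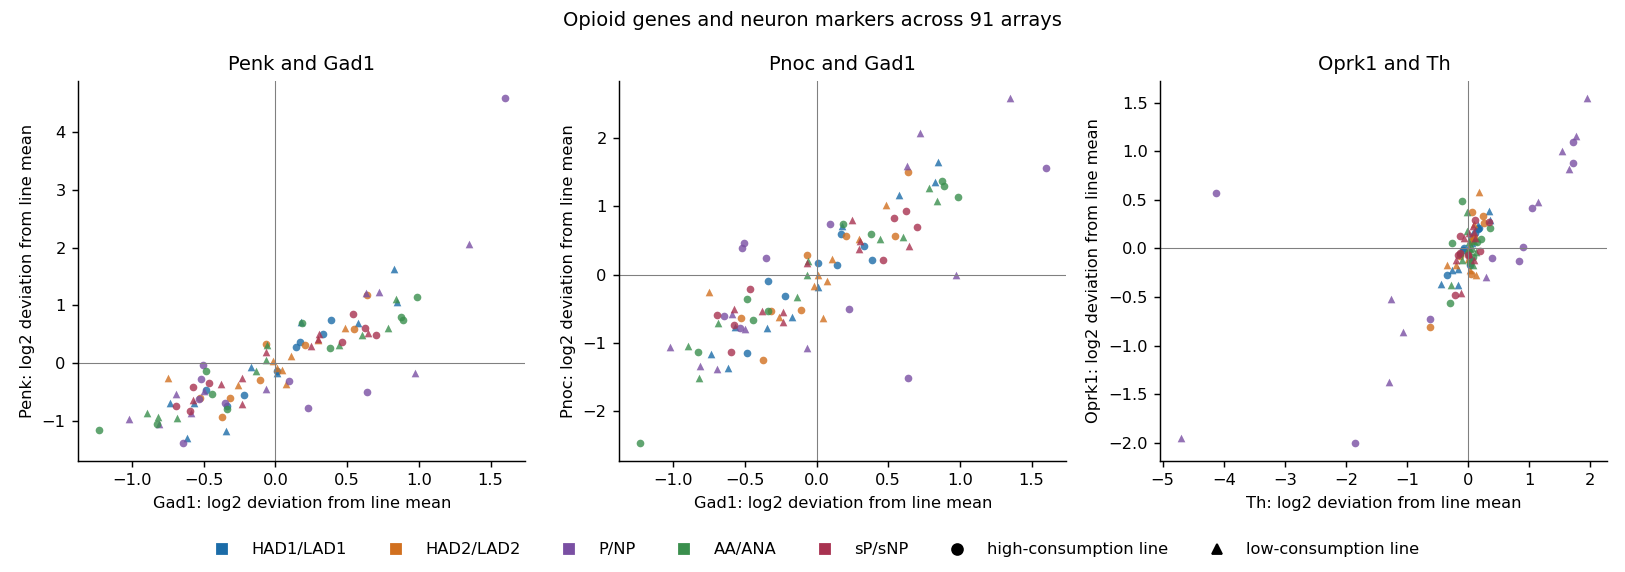
Deviation of each array from its line mean (log2) for Penk and Pnoc against Gad1 and for Oprk1 against Th, over 91 arrays; colours are pairs, circles high-consumption and triangles low-consumption lines. Penk and Pnoc rise with Gad1 in every pair (r from 0.68 to 0.97), Oprk1 rises with Th (r from 0.42 to 0.91), and the array P 10 is the point at the top right of the Penk panel and at the far left above 0 in the Oprk1 panel.

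Pdyn and Oprl1 had looser ties. Pdyn correlated with Oprk1 in HAD2/LAD2 (r = 0.83, rho 0.78, adjusted permutation p 0.000714, and 0.88 without the 2 farthest arrays), whereas in the other 4 pairs r ran from 0.18 to 0.54 and none passed by r. In P/NP it passed by rho (r = 0.30, rho 0.53, adjusted permutation p 0.256 for r and 0.00771 for rho), and r was 0.64 without P 10. In HAD2/LAD2 Pdyn also passed with Th by r (r = 0.63, rho 0.61, adjusted permutation p 0.0456 for r and 0.0621 for rho). In P/NP, Pnoc passed with Pdyn (r = 0.45, rho 0.40, adjusted p 0.0232 for r and 0.151 for rho, and r 0.56 without P 10) and with Oprk1 (r = 0.64, rho 0.69, 0.0301). Penk and Pdyn gave r = 0.84 in P/NP with P 10 and 0.32 without it. No relation of Oprl1 with Gad1 or Th passed adjustment. Of the 100 relations, 22 had an adjusted p under 0.05 for r and 19 for both r and rho.

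The genes nearest to each member were ranked by r of the deviations over the 35 HAD and LAD arrays, and are given as a description with no test. For Penk they were Sorcs1, a sorting receptor (0.93, and 0.86 over the other 56 arrays), Pnoc (0.91 and 0.81) and Tox, an HMG-box factor (0.90 and 0.68). For Pnoc they were Tox (0.92 and 0.82), Sorcs1 (0.92 and 0.90) and Penk. The enkephalin and nociceptin precursors thus had the same 2 genes and each other as nearest. For Oprk1 they were Gpr158, an orphan receptor (0.90 and 0.86), Sdc2, a syndecan (0.89 and 0.87), and Chrna6, a nicotinic receptor subunit of dopamine neurons (0.88 and 0.71). For Pdyn they were Glce, Magi3 and Ptpro (0.83, 0.82 and 0.80), with 0.46 to 0.52 over the other arrays. For Oprl1 the highest was Thumpd1 (0.64 and 0.28), and Foxj2 had 0.62 and -0.14, so its neighbours did not carry over.

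A RefSeq promoter sequence (GRCr8) was present for Pdyn, Pomc, Oprm1 and Oprd1. That of Pdyn is shown because Pdyn had the widest departure of any member on 1 array. It is the 250 bases before the start, at chr3:137366504-137366753 on the minus strand, 5' to 3', with the TATAAA match in capitals.
Pdyn: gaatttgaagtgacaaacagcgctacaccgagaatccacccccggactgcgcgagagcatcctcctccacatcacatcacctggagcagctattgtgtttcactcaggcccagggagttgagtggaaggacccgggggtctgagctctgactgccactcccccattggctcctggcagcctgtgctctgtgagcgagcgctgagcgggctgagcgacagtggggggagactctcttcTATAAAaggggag
TATAAA, searched on both strands, occurred once in the Pdyn window, beginning 13 bases before the start, and once in the Pomc window, 32 bases before it. It occurred in 12.9% of 33469 promoter windows of this length. The Oprm1 and Oprd1 windows held none. TGACG, a half-site of the cyclic AMP response element, occurred in none of these windows and in 18.2% of all.

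Around the peptides and receptors, 78 genes were listed for processing and degrading the peptides, for the G proteins, receptor kinases and arrestins, for the effector channels and cyclases, and for other proteins that bind opioids or the mu receptor. Of these, 70 had a single-gene probe set. In HAD1 against LAD1, 1 of 60 tested genes was higher and 1 lower, 3.33%, beside 3.5% of all genes. Qpct, glutaminyl cyclase, which modifies the ends of secreted peptides, averaged 10.2 in HAD1 against 9.71 in LAD1 (0.51 ± 0.12 SE, adjusted p = 0.011). Gnb4, a G protein beta subunit, averaged 9.67 in HAD1 against 9.87 in LAD1 (-0.19 ± 0.05, adjusted p = 0.0409).

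In HAD2 against LAD2, 2 of 61 tested genes were higher and 1 lower, 4.92%, beside 5.58% of all genes. Gng3, a G protein gamma subunit of neurons, averaged 11.1 in HAD2 against 10.6 in LAD2 (0.55 ± 0.09, adjusted p = 0.000264). Adcy9, an adenylyl cyclase, averaged 8.20 against 7.67 (0.52 ± 0.07, adjusted p = 4.6e-05). Wls, a Wnt transport protein that also binds the mu receptor, averaged 9.02 against 9.56 (-0.54 ± 0.10, adjusted p = 0.00155).

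In arrays labelled AA against ANA, 2 of 61 tested genes were lower and none higher, 3.28%, beside 1.67% of all genes. Ace, a peptidase that can cleave enkephalins, averaged 7.78 in AA against 8.12 in ANA (-0.34 ± 0.08, adjusted p = 0.0371), while a further Ace probe set gave 0.09 and was not called. Adcy2, another adenylyl cyclase, averaged 10.9 against 11.2 (-0.27 ± 0.07, adjusted p = 0.0339). In P against NP (63 genes) and sP against sNP (59), where limma called no probe set at all, none passed. No receptor kinase or arrestin was called in any pair.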

How the data were processed

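Ventral tegmental area RNA of 91 rats was hybridised to Affymetrix arrays, 1 a rat. By the labels' protocols, 25 ng of total RNA was amplified in 2 cycles and labelled with biotin. The authors deposited RMA values on a log2 scale for 31099 probe sets, per the submitters' processing notes. Which RMA version was used, and which arrays were normalized together, is not given in the sources used here. All columns belonged to labelled samples.

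Gene names are those of the platform annotation, with 57 controls left out (20826 had 1 symbol, 436 several, 9780 none). All 14 opioid probe sets matched RefSeq by gene ID. Samples were grouped by line and animal from their titles. In each pair, high minus low line was tested 2-sided with lmFit and eBayes on probe sets whose higher line mean was at or above the 40th percentile (7.02). That left 18272 to 19271 probe sets, with Benjamini-Hochberg adjustment within the pair and a threshold of 0.05. Differences between pairs came from 1 fit of 10 line means. Correlations used deviations from line means and were permuted within lines.

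Every opioid probe set was named. In the pathway lists up to 4 called genes per list and pair were named, with 3 nearest genes per member, and Th, Slc6a3, Gad1 and Gad2 whatever their result. None of these 4 markers was called in any pair. Members and lists were chosen with earlier results of these data known.

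Alternatives were no floor or the 60th percentile (8.58), quantile normalization, centring, a single fit of all arrays, a trended robust prior, array weights, 1 probe set per gene, a replicate block and each array left out. Gad1 or Th as a covariate, and the numbered animals without the block, were added after seeing the data, as was the relation of Penk and Pnoc to Gad2. Whether shared animal numbers pair the arrays was checked: same-numbered deviations correlated from -0.71 to 0.69 in P/NP (6 of 9 over 0.1) and from -0.44 to 0.30 in sP/sNP (1 of 8), so they were not treated as pairs. The fit was tested on simulated data. Fits were made in R 4.3.3 with limma 3.58.1, and correlations and figures in Python 3.11.15 with numpy 2.4.6 and matplotlib 3.10.9.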

Additional observations from a re-analysis of the deposited data

Results flagged for a closer look

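A single array was flagged in 10 of 140 groups of opioid values, where chance gives about 1 in 20. The flag weighs the gap to the next array against the range of the line, so a small gap can be flagged. The share flagged over all probe sets is not given. The array labelled P 10 accounted for 3 of these, with 14.4 for Penk and 13.6 and 8.17 for the 2 Pdyn probe sets. Among the probe sets tested, Oprk1 on sP 2 was low at 9.60 (next lowest sP array 10.01) and Oprl1 on NP 7 low at 8.88 (next lowest NP array 9.05). The others were under the floor. They were Pomc on LAD1 31 (6.41), Oprm1 on AA 11 (6.49) and ANA 20 (5.67), the second Oprm1 probe set on LAD1 32 (5.05), and Oprd1 on ANA 2 (6.31).

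By the F test of the single fit, adjusted p was under 0.05 for Oprl1 (0.0258), Gng3 (0.00116), Ace (0.046), Adcy9 (0.00323) and Wls (0.000145). That test called 8.25% of all probe sets. The genes other than Oprl1 were looked up because they were called within a pair on these same arrays. Their F test is therefore no separate support for a dependence on the pair. Qpct (0.498), Gnb4 (0.12) and Adcy2 (0.0571), looked up for the same reason, did not pass. For Oprl1 the negative difference was in AA against ANA. For Gng3, Adcy9 and Wls the called difference was in HAD2 against LAD2, and for Ace in AA against ANA, where the groups rest on labels that may not match the values.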

How the results depend on the processing

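Of 318 differences of tested opioid probe sets under the alternatives other than leaving out each array in turn, 300 kept their sign and their side of the threshold, 3 passed it and 15 changed sign, none of these called. The 3 were Oprl1 in AA against ANA with the single fit of all arrays, array weights and the 17 arrays of 1 set, each raising the count of opioid calls there to 1. Sign changes without P 10 were Penk (-0.070) and Pdyn (-0.14), and without P 10 and NP 8 Penk (-0.19), Pdyn (-0.17) and Pnoc (-0.076). With Gad1 as a covariate they were, in HAD1 against LAD1, Penk (-0.16), Pnoc (-0.0053), Oprk1 (0.043 and 0.065) and Oprl1 (-0.0078), in HAD2 against LAD2 Penk (-0.013), and Pnoc in P against NP (-0.017), AA against ANA (0.019) and sP against sNP (0.30). With Th it was Oprk1 in sP against sNP (-0.029). Centring the arrays moved the opioid count of the F test to 0. The counts over all probe sets that moved by over 1.5 times were, for HAD1 against LAD1, 559 with the stricter floor and 331 with 1 probe set per gene (891 as reported), for HAD2 against LAD2 566 with 1 per gene (1287), and for AA against ANA 836 in the single fit, 1451 with array weights, 151 with 1 per gene and 985 in 1 set (399). Fewer probe sets were tested with the stricter floor and 1 per gene, and the cause of the other moves was not tested. With each array left out these counts ran from 701 to 1376 (without LAD1 37) in HAD1 against LAD1, 1104 to 1427 in HAD2 against LAD2 and 274 to 669 (without ANA 20) in AA against ANA, and stayed at 0 in the other pairs. The opioid count ran from 0 to 1 (without AA 19) in AA against ANA and was 0 elsewhere. Of the 509 differences of tested opioid probe sets with 1 array left out, 17 changed sign, in 7 of 28 tests: Penk and Pdyn in P against NP without P 10, Pnoc in AA against ANA without any of 4 arrays (up to 0.17, without AA 9) and in sP against sNP (0.029, without sP 4), Oprk1 in sP against sNP without any of 3 (down to -0.025) and its second probe set in HAD1 against LAD1 without any of 6 (up to 0.025), and Oprl1 in HAD1 against LAD1 (-0.0033, without HAD1 29). With the replicate block over the shared animal numbers, 0 probe sets were called in P against NP and 0 in sP against sNP, as for the same animals without the block. At an unadjusted p under 0.05 these pairs held 232 and 672 probe sets, against 957 and 914 by chance. The other pairs share no animal numbers. Signals near the floor limit what can be said of Oprm1, Oprd1 and Pomc.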
